A study of Mus musculus with 2 samples.

Results

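Eph receptors and their ephrin ligands were followed in lens RNA through 9 genes chosen by name: the EphA receptors Epha2, Epha4 and Epha7, the EphB receptors Ephb2 and Ephb4, the ephrin-A ligands Efna1 and Efna5, and the ephrin-B ligands Efnb1 and Efnb2. All 9 were found among the 21673 genes of the deposited table. The other 13 Eph and ephrin genes of the mouse are given with them, for 22 in all. RNA came from lenses of C57BL/6 mice 60 days after birth, with 1 library per genotype. The library called CKO carried the Le-Cre+/- transgene together with Msx2fl/fl, and the library called WT carried Msx2fl/fl without Cre. Both groups thus share the floxed Msx2 alleles, and Cre is present in CKO alone. Le-Cre is driven by Pax6 regulatory sequence and acts in the lens and other tissue from the surface ectoderm, so Msx2 is not removed from the lens alone. What follows from loss of Msx2 and from the presence of Cre cannot be told apart. The labels do not state how many animals went into a library.

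Eph receptors are receptor tyrosine kinases that bind ephrins on the surface of a neighbouring cell, and both partners signal into their own cell at the contact. Ephrin-A ligands are held in the membrane by a lipid anchor, and ephrin-B ligands cross it and have a cytoplasmic tail. In the lens, EphA2 is known for the ordered packing of fibre cells, inherited EPHA2 mutations cause human cataract, and mice without ephrin-A5 develop cataract.

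The deposited values are FPKM, reads per kilobase of gene scaled to an effective library size, and the reads behind them could be recovered as whole numbers. The CKO library held 17165504 reads and the WT library 20784737. Msx2, the targeted gene, had 3 reads in CKO and 311 in WT. Lens fibre markers were abundant in both libraries, with 7 analysed markers summing to 90257 FPKM in CKO and 228542 in WT. Of these sums the crystallin gene Cryaa alone made 85420 and 215436. The CKO library also held more RNA of retina, with 8 photoreceptor markers summing to 694 FPKM against 16.9. The libraries differed in sex-linked RNA too: Xist had 16251 reads in CKO and 35 in WT, and the Y-linked gene Eif2s3y had 0 and 819, so sex and genotype cannot be told apart. Genes with a mean of at least 1 FPKM in the pair of libraries are called measured, and a measured gene passed the size rule where FPKM + 1 differed at least 2-fold. Folds are plain ratios of FPKM, with 95% intervals for counting error only. As each genotype has 1 library, no difference has been set against variation between animals, and no p-value was computed.

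None of the 9 genes passed the size rule. Of the 9, 6 were measured, and their median log2 ratio of FPKM + 1 was -0.18, beside -0.02 for all 10757 measured genes. By the same rule 8.76% of all measured genes passed, 5.83% higher and 2.93% lower in CKO. The gene nearest to the rule was Efna5, the ligand gene linked to cataract, at 2.001-fold lower in CKO by plain ratio. Epha2 remained the receptor gene with the highest level in each library. The 3 genes under the mean level of 1 FPKM were Epha4, Epha7 and Ephb2, and of these Epha4 and Epha7 had higher values in CKO. The direction of a small ratio depended on scaling. With library totals alone in place of the deposited scaling, the median log2 ratio of the same measured genes moved from -0.02 to 0.68, and with totals without crystallins it moved to 0.20. Under the alternatives the share of all genes passing in either direction was 12.7% with a pseudocount of 0.1, 21% with library totals alone, 13.1% with totals without crystallins, 8.8% with median-of-ratios size factors and 6.37% with a minimum of 10 reads in place of the mean level.

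**Figure D1:**
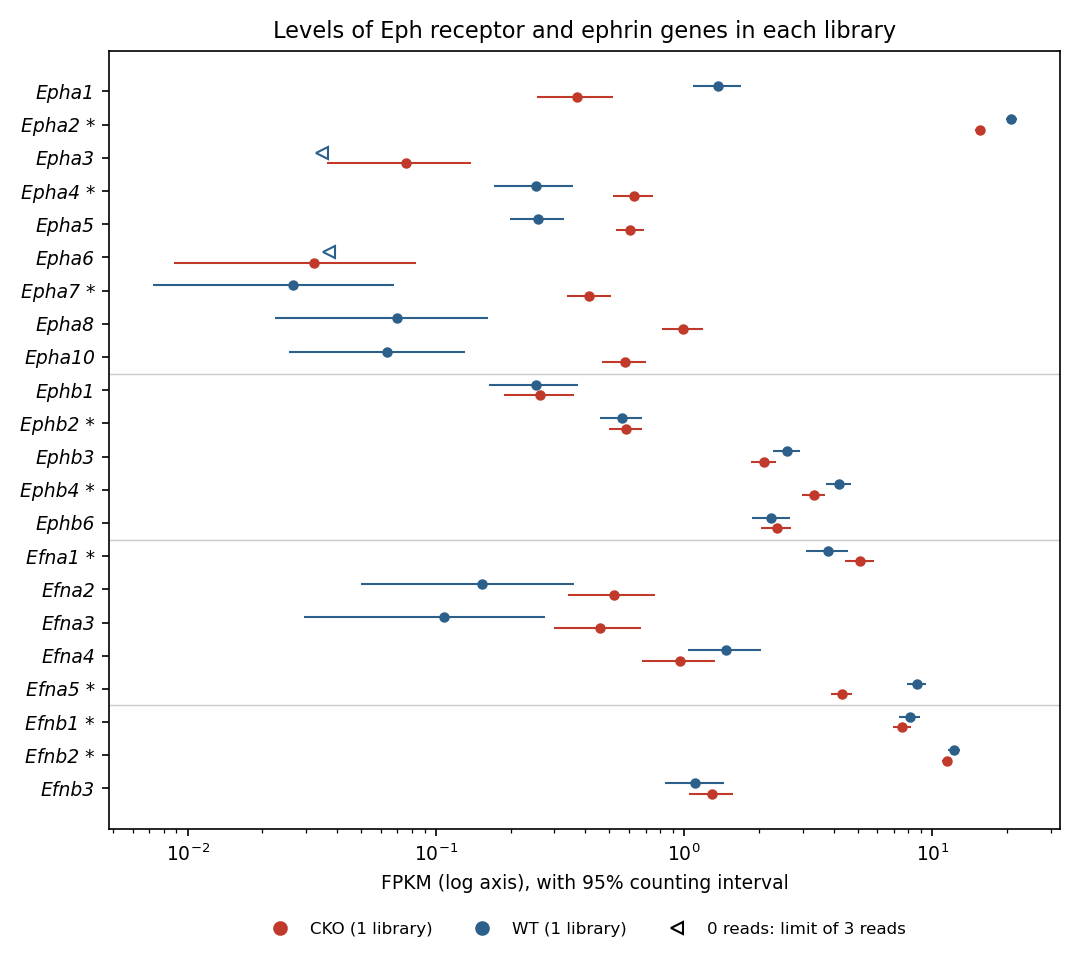
Level of each of the 22 Eph and ephrin genes in FPKM (log axis) in the CKO library (red) and the WT library (blue), 1 library each, with 95% counting intervals; asterisks mark the 9 described genes and open triangles mark 0 reads, drawn at the level of 3 reads. Epha2 sits at the top in both libraries (15.5 and 20.8 FPKM), and Epha7, Epha8 and Epha10 lie below 0.1 FPKM in WT.

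The start regions of 3 genes are shown, chosen by their values. Epha2 is the most abundant receptor gene, Efna5 the member nearest to 2-fold lower, and Epha7 the member with the highest ratio. The ratio of Epha7 rests on 4 reads in WT. Each line gives the 250 bases before a RefSeq transcription start on GRCm38.p6, 5′ to 3′ on the strand of the gene. Capitals mark the GC box GGGCGG and its reverse complement CCGCCC. The Epha2 window is chr4:141300971-141301220 on the plus strand, the Epha7 window chr4:28812881-28813130 on the plus strand and the Efna5 window chr17:62881318-62881567 on the minus strand.
Epha2: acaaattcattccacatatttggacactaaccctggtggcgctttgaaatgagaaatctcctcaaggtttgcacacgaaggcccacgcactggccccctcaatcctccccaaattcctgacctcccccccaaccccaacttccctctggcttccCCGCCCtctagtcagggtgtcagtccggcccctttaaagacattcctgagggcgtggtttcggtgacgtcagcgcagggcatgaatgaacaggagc
Epha7: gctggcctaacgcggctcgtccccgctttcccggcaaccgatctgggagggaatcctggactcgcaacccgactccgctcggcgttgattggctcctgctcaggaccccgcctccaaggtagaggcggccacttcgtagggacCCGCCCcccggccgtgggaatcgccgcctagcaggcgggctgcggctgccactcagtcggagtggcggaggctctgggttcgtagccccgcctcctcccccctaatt
Efna5: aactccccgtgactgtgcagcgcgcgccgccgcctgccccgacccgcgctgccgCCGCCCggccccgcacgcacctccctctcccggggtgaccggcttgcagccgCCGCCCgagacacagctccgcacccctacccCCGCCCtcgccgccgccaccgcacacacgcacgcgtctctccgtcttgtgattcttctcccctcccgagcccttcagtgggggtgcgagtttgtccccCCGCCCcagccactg

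The Epha2 window held 1 GC box and 9 CG dinucleotides at 55.6% G + C, the Epha7 window 1 GC box and 25 CG dinucleotides at 69.2%, and the Efna5 window 4 GC boxes and 32 CG dinucleotides at 74.8%. The median of all 32851 windows of this length was 52.4% G + C and 6 CG dinucleotides. Start regions were found for 21 of the 22 family genes, in 24 windows. The GC box occurred in 19 of these 24 windows and in 32.7% of all windows, on either strand. The letters TAATTG or CAATTA, the core bound by Msx homeodomain proteins, occurred in 1 of the 24 family windows and in 7.17% of all windows. That match lay in Epha7 at chr4:28813126-28813131, in the window of its second listed start, and its last base is the annotated start of the gene, so it is cut off in the window printed above. A match of letters is not evidence of binding.

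Epha2 encodes the EphA receptor best known in lens. It was at 15.5 FPKM in CKO (1697 reads) and 20.8 FPKM in WT (1482 reads). The level was 1.34-fold lower in CKO (1.25 to 1.43) with the deposited scaling and 1.39-fold higher with library totals alone. Its log2 ratio of -0.40 did not pass the size rule. Among all genes listed, Epha2 stood at percentile 93.0 of level in CKO and 94.3 in WT. The gene (ENSMUSG00000006445) spans chr4:141301240-141329384 on GRCm38, plus strand, with 17 exons in its coding transcript. It made up 80.8% of the summed FPKM of the 9 EphA receptor genes in CKO and 91.1% in WT.

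The remaining EphA members were far less abundant. Epha4, a receptor of axon guidance that binds ephrins of both classes, was at 0.627 FPKM in CKO (118 reads) and 0.252 in WT (31 reads). The plain ratio was 2.49-fold higher in CKO (1.66 to 3.82). Epha7, a receptor gene of the developing nervous system, was at 0.416 FPKM in CKO (96 reads) and 0.0265 in WT (4 reads). That is 15.7-fold higher in CKO (5.93 to 58.7), the highest ratio of the 9 genes. Both lay under the mean of 1 FPKM, and their log2 ratios of FPKM + 1 were 0.38 and 0.46. The ratios stayed above 1 under every scaling tried, at 2.95-fold and 18.6-fold with totals without crystallins and 4.61-fold and 29.1-fold with library totals alone. The scalings tried raised plain log2 ratios or lowered them by 0.014 at most, so a ratio well above 1 had to stay above 1. Epha4 (ENSMUSG00000026235) spans chr1:77367185-77515088 on the minus strand, and Epha7 (ENSMUSG00000028289) spans chr4:28813131-28967499 on the plus strand.

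Among EphB receptors, Ephb2 was nearly equal in the libraries and Ephb4 somewhat lower in CKO with the deposited scaling. Ephb2, a receptor of axon guidance and synapses, was at 0.584 FPKM in CKO (172 reads) and 0.561 in WT (108 reads). Its ratio was 1.04 (0.813 to 1.34), so at this depth no difference was detectable with the deposited scaling, and it was 1.93 with library totals alone. Ephb4, which binds ephrin-B2 and marks venous endothelium, was at 3.33 FPKM in CKO (361 reads) and 4.21 in WT (298 reads). It was 1.26-fold lower (1.08 to 1.48) with the deposited scaling and 1.47-fold higher with library totals alone, at a log2 ratio of -0.27. The 8 endothelium and pericyte markers summed to 14.1 FPKM in CKO and 16.1 in WT, and 1 of the 3 measured passed the size rule, Kdr at 2.87 and 0.181. The other measured markers were Tek at 2.30 and 1.57 FPKM and Pdgfrb at 7.80 and 14.2. Pdgfrb was the only marker of the list with a lower value in CKO, and it makes up much of both sums. Those under a mean of 1 FPKM included Rgs5 at 0.725 and 0.101 (77 and 7 reads) and Pecam1 at 0.158 and 0.0526 (23 and 5 reads). Cdh5 was at 0.118 and 0.0329 (11 and 2 reads), Tie1 at 0.0870 and 0.0266 (10 and 2 reads), and Emcn was at 0 in WT. The part of endothelial and pericyte RNA in the values of Ephb4 and Efnb2 was not tested. Ephb2 (ENSMUSG00000028664) spans chr4:136647539-136835988 on the minus strand, and Ephb4 (ENSMUSG00000029710) spans chr5:137350109-137378669 on the plus strand.

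The ephrin-A members differed in opposite directions under the deposited scaling. Efna5 was at 4.32 FPKM in CKO (407 reads) and 8.64 in WT (532 reads). It was 2.001-fold lower in CKO (1.755 to 2.28), and 1.08-fold lower with library totals alone. Its log2 ratio of FPKM + 1 was -0.86, inside 2-fold, and that of the plain FPKM was -1.001, just past it. Efna5 was the only measured member still below 0 under each of the scalings tried, and it stayed below the median of the measured genes in all of them. Efna1, a ligand with high affinity for EphA2, was at 5.10 FPKM in CKO (218 reads) and 3.79 in WT (106 reads). The ratio was 1.34-fold higher (1.06 to 1.71), at a log2 ratio of 0.35, and 2.49-fold higher with library totals alone, where Efna1 passed the size rule. Efna1 (ENSMUSG00000027954) spans chr3:89271733-89281142 and Efna5 (ENSMUSG00000048915) spans chr17:62604184-62881317, both on the minus strand.

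The balance of the ephrin-A ligands does not depend on scaling, because both genes of a pair share a library. Efna5 was at 2.28 times the level of Efna1 in WT and at 0.847 times in CKO. The ratio was thus 2.69-fold lower in CKO (2.05 to 3.54). Against the receptor gene Epha2, Efna5 was at a ratio of 0.416 in WT and 0.278 in CKO, a change of 0.668 (0.575 to 0.776). Whether the proteins of these genes pair in lens was not tested. The ratio of Efna1 to Epha2 was 0.183 in WT and 0.328 in CKO, 1.80-fold higher (1.40 to 2.31). As a share of the summed FPKM of the 5 ephrin-A genes, Efna5 made up 61.0% in WT and 38.02% in CKO, and Efna1 26.8% and 44.9%. Intervals again cover counting error only, and in whole lenses fewer cells of a type and less RNA per cell cannot be told apart.

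The ephrin-B members were similar in the libraries with the deposited scaling. Efnb1, an X-linked gene mutated in human craniofrontonasal syndrome, was at 7.55 FPKM in CKO (609 reads) and 8.12 in WT (428 reads), a ratio of 0.930 (0.820 to 1.05). Efnb2, the ligand of EphB4 and a marker of arterial endothelium, was at 11.5 FPKM in CKO (1843 reads) and 12.2 in WT (1280 reads), a ratio of 0.941 (0.875 to 1.01). Both counting intervals include 1 under the deposited scaling, and with library totals alone the ratios were 1.72 and 1.74. Their log2 ratios of -0.09 and -0.08 changed sign with library totals alone and also with totals that leave out crystallins. Efnb1 stood to Efnb2 at 0.656 in CKO and 0.664 in WT, a change of 0.988 (0.855 to 1.14). The X-linked Efnb1 was measured in libraries that differ in Xist as given above, and the median log2 ratio over 334 measured X-linked genes was 0.01, beside -0.02 over 10404 autosomal genes. Efnb1 (ENSMUSG00000031217) spans chrX:99136130-99148991 on the plus strand, and Efnb2 (ENSMUSG00000001300) spans chr8:8617434-8661242 on the minus strand.

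**Figure D2:**
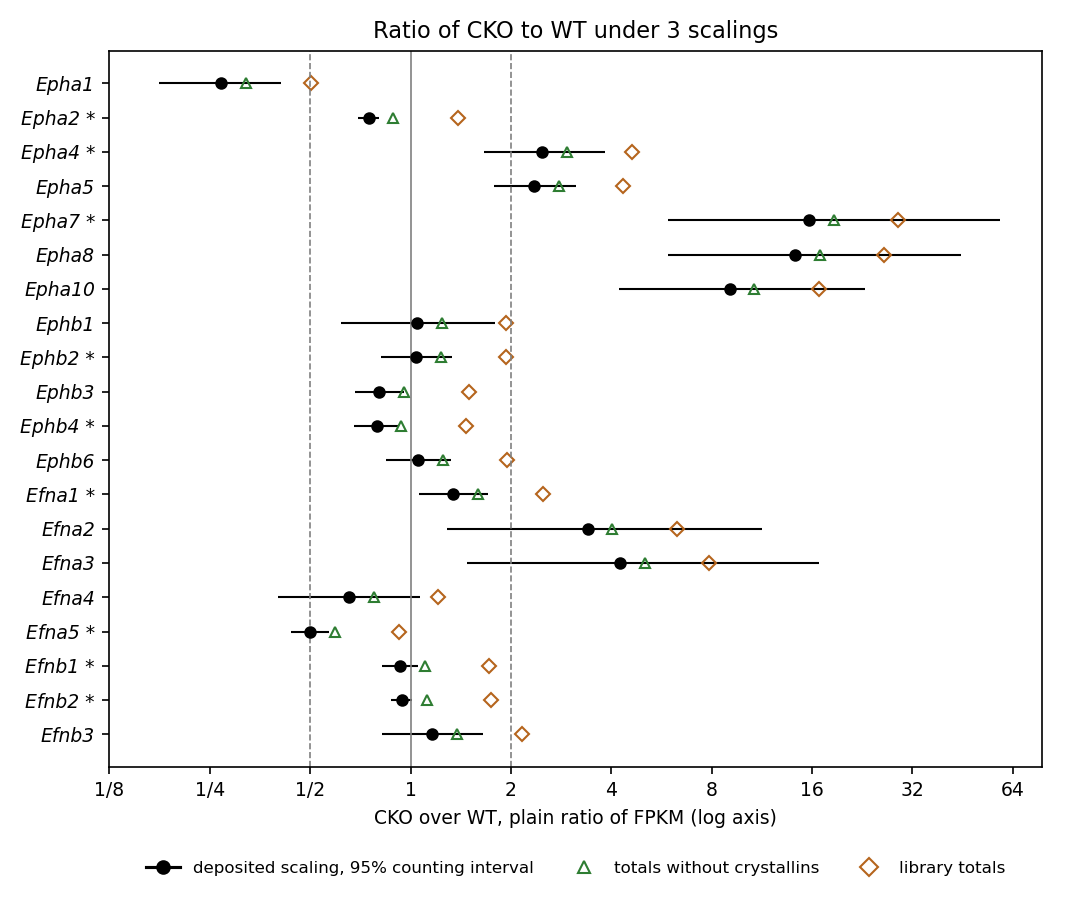
Plain ratio of CKO to WT (log axis) for the 20 Eph and ephrin genes with reads in both libraries, under the deposited scaling (black, with 95% counting intervals), totals without crystallins (green) and library totals alone (orange); asterisks mark the 9 described genes, and dashed lines stand at 2-fold. Epha2, Ephb4, Efnb1 and Efnb2 lie below 1 with the deposited scaling and above 1 with library totals alone, while Efna5 stays below 1 and Epha4 and Epha7 stay above 1 in all 3.

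The order of levels was led by the same 2 genes in both libraries. In WT it ran from Epha2 through Efnb2, Efna5, Efnb1, Ephb4, Efna1, Ephb2 and Epha4 to Epha7. Counting intervals of neighbours overlapped between Efna5 and Efnb1 and between Ephb4 and Efna1. In CKO Efnb1 and Efna1 stood above Efna5, and Epha4 stood above Ephb2. Neighbours overlapped there between Efna1 and Efna5, between Epha4 and Ephb2 and between Ephb2 and Epha7. FPKM here uses the length of all annotated exons of a gene joined, which for Ephb2 is 12608 bases against 4804 for its transcript with the longest coding sequence. With that transcript length, an alternative added after the data were seen, Ephb2 came to 1.53 FPKM in CKO and 1.47 in WT. By either length 7 of the 9 genes kept their rank in CKO and 7 of 9 in WT. No plain ratio between the libraries is affected. Ratios of FPKM + 1 and the mean level do depend on length. With the transcript length Ephb2 lies above the mean of 1 FPKM, and the size rule was not applied at that length.

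The make-up of the receptor and ligand classes showed where the libraries differed. The 9 EphA genes summed to 19.2 FPKM in CKO and 22.8 in WT, the 5 EphB genes to 8.62 and 9.85, the 5 ephrin-A genes to 11.4 and 14.2 and the 3 ephrin-B genes to 20.3 and 21.5. The 4 sums were 1.05-fold to 1.25-fold lower in CKO with the deposited scaling, and the shift of 0.89 on the log2 scale that library totals alone bring puts all 4 above WT. Within EphA, the 8 genes other than Epha2 summed to 3.69 FPKM in CKO and 2.04 in WT, 1.81 times as much. Of these sums Epha1, which was lower in CKO, made 0.370 and 1.37, so the ratio of 1.81 joins opposite directions. Within EphB and ephrin-B, shares were similar: Ephb4 held 38.6% of its class in CKO and 42.7% in WT, and Efnb2 56.5% and 57.0%.

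**Figure D3:**
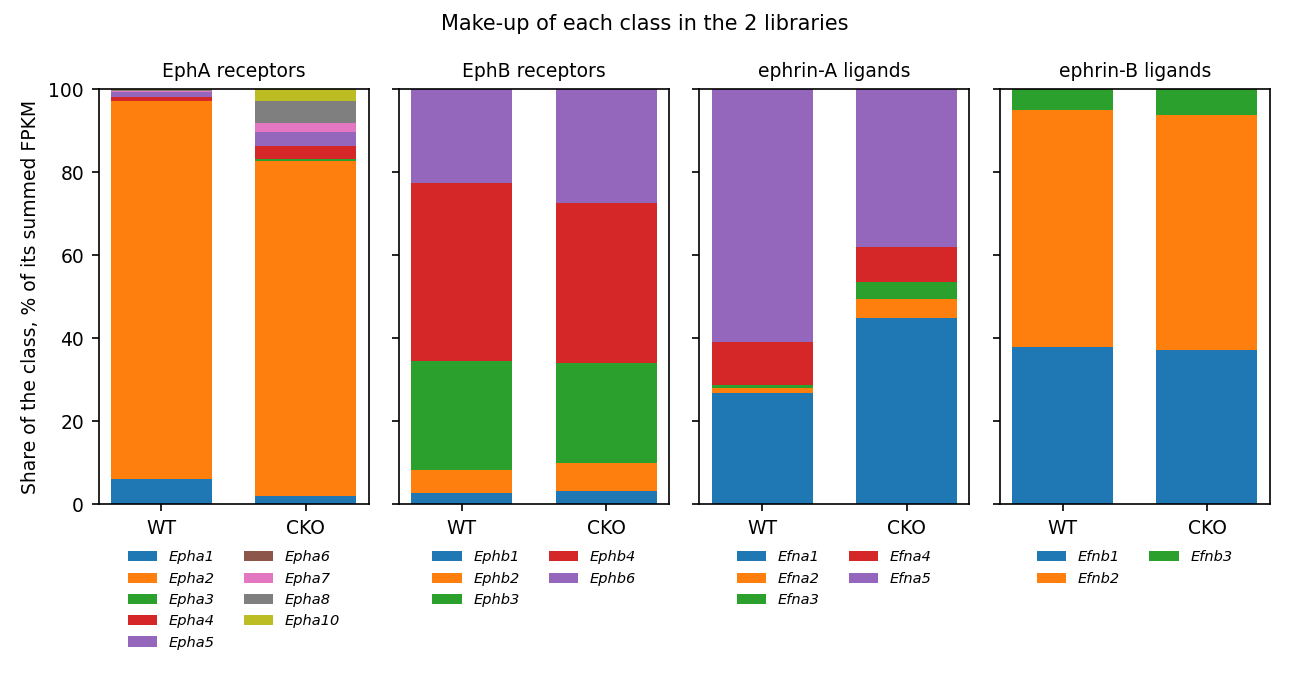
Share of each gene in the summed FPKM of its class (percent, bars from 0 to 100) in the WT and CKO libraries, 1 library each. Efna5 takes 61.0% of the ephrin-A class in WT and 38.02% in CKO, and Epha2 takes 91.1% of the EphA class in WT and 80.8% in CKO.

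The remaining 13 family genes were mostly low. Of these 4 were measured, Ephb3, Ephb6, Efna4 and Efnb3, and none passed the size rule, with log2 ratios from -0.33 for Efna4 to 0.12 for Efnb3. Ephb3, which shares ligands with Ephb2, was at 2.09 FPKM in CKO against 2.59. Ephb6, a receptor whose kinase domain is inactive, was at 2.36 and 2.24. Efnb3, a midline guidance ligand of the nervous system, was at 1.29 and 1.11. Efna4 was at 0.963 and 1.47 FPKM on 36 reads in each library, and 7.68% of its 50-base words are shared with another gene. Efna4 and Ephb3 were above 0 with library totals alone.

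A set of EphA receptor and ephrin-A genes was under 1 FPKM in both libraries and higher in CKO by plain ratio. Epha8 was at 0.990 FPKM in CKO (109 reads) and 0.0695 in WT (5 reads), 14.2-fold higher (5.92 to 44.7). Epha10, whose kinase domain is inactive, was at 0.576 FPKM in CKO (97 reads) and 0.0636 in WT (7 reads), 9.05-fold higher (4.23 to 23.1). Epha5, a receptor of retinal and brain axon mapping, was at 0.606 and 0.258 FPKM (237 and 66 reads), 2.35-fold higher (1.78 to 3.13). Its joined exons have 16739 bases, against 4675 for its transcript with the longest coding sequence. With that transcript length Epha5 came to 2.17 FPKM in CKO and 0.925 in WT. The ligand gene Efna2 was at 0.522 and 0.154 FPKM (26 and 5 reads), 3.40-fold higher (1.28 to 11.3), and Efna3 at 0.457 and 0.108 FPKM (26 and 4 reads), 4.25-fold higher (1.47 to 16.7). Of the 50-base words of Efna3, 8.13% also occur in its antisense gene Gm15998. Epha3 had 10 reads in CKO and 0 in WT. With a floor of 3 reads put in place of that 0 the ratio comes to 2.18, which is not a lower limit. The counting interval of the ratio starts at 1.46. Epha6 had 4 and 0 reads, too few for a ratio. Ephb1 was at 0.264 and 0.252 FPKM, a ratio of 1.05 with the deposited scaling and 1.94 with library totals alone.

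Epha1, a receptor gene of epithelia, went the other way. It was at 0.370 FPKM in CKO (34 reads) and 1.37 in WT (82 reads), 3.69-fold lower (2.45 to 5.68), and 1.99-fold lower with library totals alone. Its mean level was under 1 FPKM, so it was not measured by the size rule. Part of Epha1 overlaps an exon of Zyx on the opposite strand, and 5.54% of its 50-base words also occur in transcripts of other genes. As no source used here says whether counting kept strand, its reads there cannot be told apart from those of Zyx.

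By the plain ratio with at least 10 reads, a rule added after the data were seen, 10 of 21 family genes differed at least 2-fold, 8 higher and 2 lower in CKO. Of the 9 described genes, Epha4 and Epha7 were higher and Efna5 lower by that rule. Over all 16321 genes with at least 10 reads over both libraries, 23.9% differed, 17.7% higher and 6.2% lower. Epha3, Epha7, Epha8, Epha10, Efna2 and Efna3 had under 10 reads in WT, so they met the minimum only through CKO, where they are high, and nothing is read from their count. All 8 higher genes were under 1 FPKM in each library by the length of joined exons.

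Retinal markers were higher in the same library. All 8 photoreceptor markers passed the size rule as higher in CKO, by 16.4-fold to 77.2-fold. Of 10 inner retina neuron markers 7 were measured and 5 were higher, with sums of 52.0 FPKM in CKO and 9.11 in WT. Of 5 retinal glia markers 4 were higher, with sums of 133 and 44.6 FPKM. Leukocyte markers summed to 28.1 and 4.97 FPKM, with 3 of 3 measured genes higher and 4 of the list not measured. No marker of these 4 lists was at 0 in either library. Cornea and conjunctiva markers summed to 170 FPKM in CKO and 13.6 in WT, of which Aldh3a1 alone made 169 and 11.6. Of the other 3 markers analysed, Krt4 was lower in CKO, at 0.883 and 1.72 FPKM (44 and 56 reads). Krt13 was at 0.0235 and 0.180 FPKM (1 and 5 reads) and Krt14 at 0 and 0.0745 (0 and 2 reads), too few for a ratio. The part of retinal RNA in the ratios of Epha4, Epha7, Epha5, Epha8, Epha10, Efna2 and Efna3 was not tested.

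Lens markers were lower beside Efna5 and Epha2. Of 7 analysed fibre markers 5 passed as lower in CKO. The sum of the 7 was 2.53-fold lower, which is mainly the ratio of Cryaa, 2.52-fold lower. Single fibre markers ran from 1.76-fold lower for Gja3 to 4.64-fold lower for Lgsn. Of 6 lens epithelium markers 3 passed as lower, among them Gja1, which encodes connexin 43, at 18.6 and 55.1 FPKM. Foxe3, an epithelial transcription factor, was at 63.0 and 116 FPKM, 1.85-fold lower (1.71 to 1.99). Cdh1 belongs to this list and also to the junction genes. With library totals alone 1 of the 7 fibre markers and 0 of the 6 epithelium markers passed as lower, and with totals without crystallins 4 and 3. Foxe3, Pax6, Cdh1 and the fibre marker Gja3 were above 0 with library totals alone. Their part in the values of Efna5 and Epha2 was not tested.

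**Figure D4:**
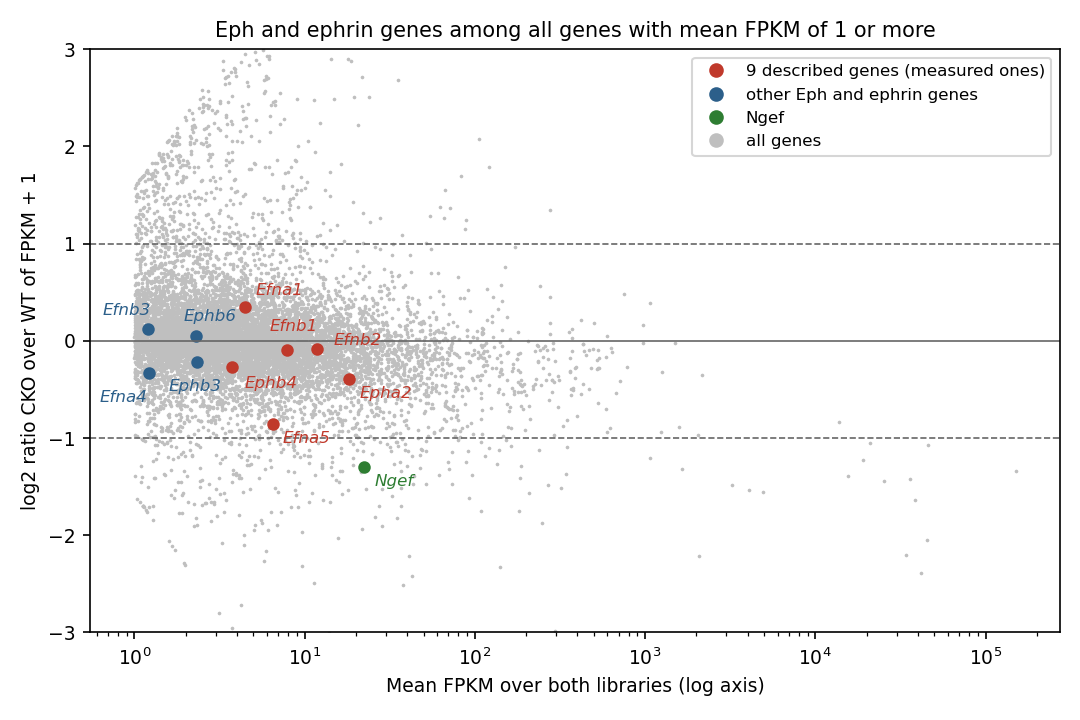
Log2 ratio of FPKM + 1, CKO over WT, against mean FPKM (log axis) for the 10757 measured genes (grey; genes beyond a log2 ratio of 3 in size are not drawn), with the measured members in red, other Eph and ephrin genes in blue and Ngef in green; dashed lines mark the size rule. With the deposited scaling all 10 measured family genes lie between the dashed lines, Efna5 lowest at -0.86, and Ngef lies below at -1.30.

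Genes that act with Eph receptors inside the cell were followed in a list of 47. Of these 37 were measured, and 1 passed the size rule, as lower in CKO. Of all measured genes 8.76% passed in either direction and 2.93% as lower, so the count is not read as a result about the list. The median log2 ratio of the 37 genes was -0.11, beside -0.02 for all measured genes. The lower gene was Ngef, which encodes ephexin 1, a guanine nucleotide exchange factor that binds EphA receptors. Ngef was at 12.5 FPKM in CKO (1145 reads) and 32.4 in WT (1929 reads), 2.58-fold lower (2.40 to 2.78), or 1.39-fold lower with library totals alone. Its ratio to Epha2 was 1.56 in WT and 0.808 in CKO, 1.93-fold lower (1.74 to 2.14).

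The rest of that list did not pass. Src, a kinase recruited by Eph receptors, had the highest ratio of the measured genes, at 8.22 and 4.87 FPKM with a log2 ratio of 0.65. Inppl1, which encodes the lipid phosphatase SHIP2 that binds EphA2, was at 4.92 and 8.98 FPKM with a log2 ratio of -0.75. Sipa1l1, a Rap GTPase-activating protein gene, was at 5.65 and 9.85 FPKM with -0.71. Rac1, the GTPase gene, was at 51.4 and 81.5 FPKM with -0.66, and Adam10, whose protease sheds ephrins, was at 20.0 and 29.0 FPKM with -0.52. Below the mean of 1 FPKM, the adaptor gene Grb10 was at 1.20 FPKM (255 reads) and 0.137 FPKM (19 reads). Inppl1, Sipa1l1, Rac1 and Adam10 were above 0 with library totals alone.

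All 7 genes of the lens junctions linked to Eph signalling were measured and stayed within 2-fold. Their log2 ratios ran from -0.74 for Tjp1, the tight junction scaffold ZO-1, to -0.10 for Ctnnd1, p120-catenin. Cdh2, the N-cadherin of fibre cells, was at 21.8 and 25.2 FPKM, and Cdh1, the E-cadherin of the epithelium, at 11.6 and 13.9. Ctnnb1, which encodes beta-catenin, was at 68.7 and 98.3 FPKM, Ctnna1, alpha-catenin, at 35.3 and 45.6, and Cttn, the actin-binding protein cortactin, at 32.2 and 35.5. With library totals alone all 7 were above 0, so their common direction depends on scaling. Efna5 to Cdh2 stood at 0.343 in WT and 0.198 in CKO, a change of 0.579 (0.504 to 0.666). Epha2 to Cdh1 stood at 1.49 and 1.34, a 1.12-fold difference whose interval reached 1 (0.999 to 1.25). Against the fibre marker Bfsp1 the direction was the other way. The ratio of Efna5 to Bfsp1 was 1.40-fold higher in CKO and that of Epha2 to Bfsp1 2.09-fold higher, with no interval computed.

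**Figure D5:**
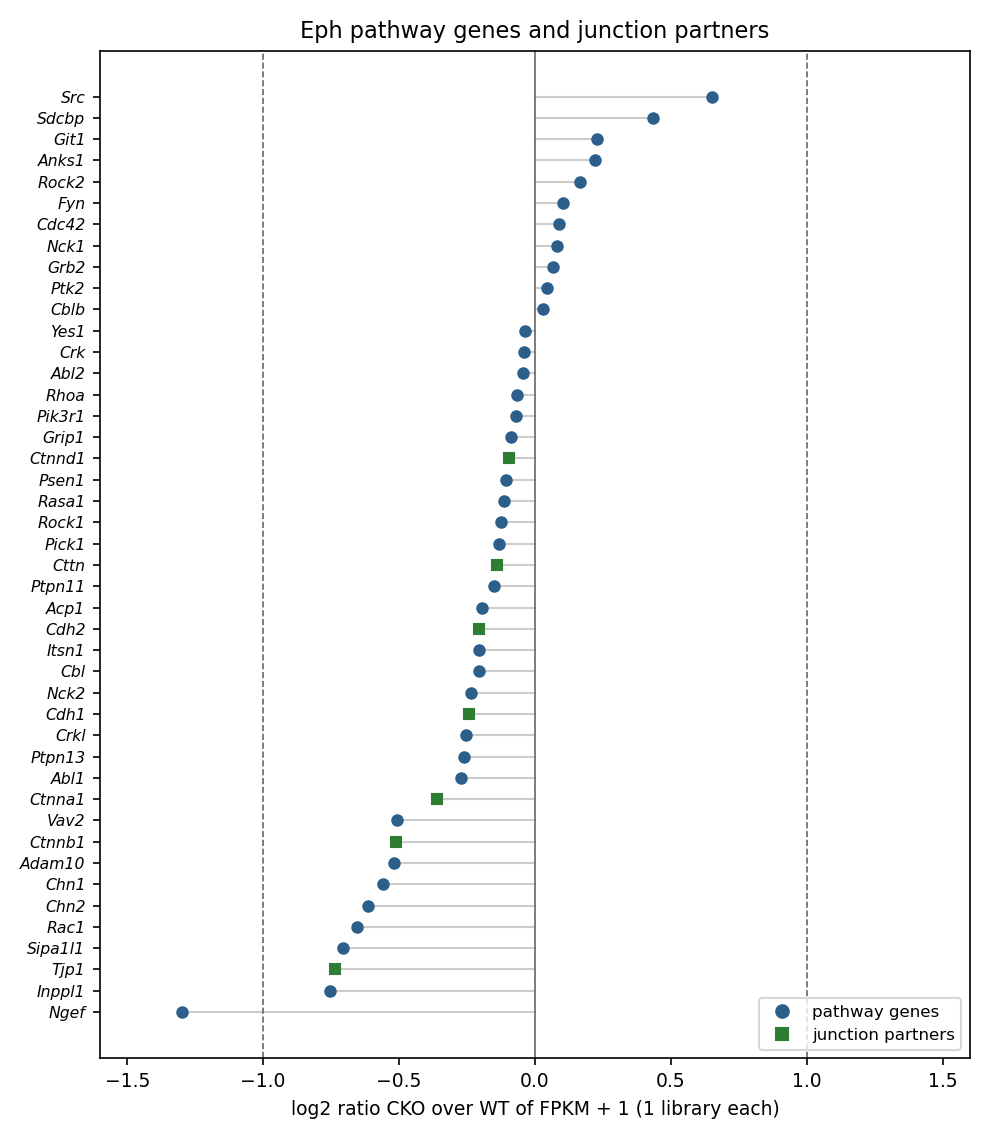
Log2 ratio of FPKM + 1, CKO over WT with the deposited scaling, for the 37 measured Eph pathway genes (blue circles) and 7 junction genes (green squares), 1 library per genotype; dashed lines mark the size rule. Ngef at -1.30 is the gene past a dashed line, and with library totals alone the 7 junction genes lie above 0.

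Some family genes lie next to each other. Efna1, Efna3 and Efna4 stand on the minus strand of chromosome 3 within 66296 bases, and their ratios differed, with Efna1 1.34-fold higher, Efna3 4.25-fold higher and Efna4 at a ratio of 0.653 with an interval that includes 1. Ephb2 and Epha8 stand on the minus strand of chromosome 4 within 309278 bases. Between them lie the complement genes C1qb, C1qc and C1qa, made by macrophages and microglia, which were at 5.90, 3.01 and 8.56 FPKM in CKO and 0.963, 0.746 and 1.70 in WT. Few sequences of the 9 described genes occur in transcripts of other genes: 0 of their 50-base words for Epha7, Ephb4, Efna1, Efna5, Efnb1 and Efnb2, 1 of 4621 for Epha2, 8 of 8145 for Epha4 and 28 of 12650 for Ephb2.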

How the data were processed

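RNA from mouse lens was sequenced in 2 libraries, 1 per genotype, so no replicate spread exists. The authors deposited FPKM per gene; per the submitters' processing notes, the tools were DESeq2 1.10.1, HTSeq 0.6.0 and STAR 2.5.1b, listed there with no role. The genome build, the annotation and the strand setting are not stated. The unit was inferred: 100% of values times gene length were whole multiples of 1 step within 0.001, which gave the reads. The effective library was 1.36 times the reads in CKO and 0.735 times in WT. Crystallins took 40.1% and 61.6% of reads, so scaling matters. Of the identifiers, 99.5% were found in GENCODE M21 (GRCm38), all on the same chromosome, and coordinates are read as GRCm38. The table's length equals the joined exons there in 19 of 22 family genes.

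Ratios used FPKM + 1, and the alternatives were a pseudocount of 0.1, 3 other scalings and a minimum of 10 reads. Named genes are all family and junction genes, pathway genes past the rule, and the markers. Further pathway genes, the sex-linked, C1q and Kdr genes, and single lens, endothelial and pigmented tissue markers were named after their values were seen. With 2 libraries no likeness of pattern between genes was computed. Intervals are exact (conditional binomial or Fisher, 95%) and cover counting error only. The members, lists and rules were chosen with earlier results of these data known. Python 3.11.15 and scipy 1.17.1 were used, and the code was tested on simulated data.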

Additional observations from a re-analysis of the deposited data

How the results depend on the processing

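The count of 0 of the 9 genes past the size rule held with a pseudocount of 0.1 and with a minimum of 10 reads. It also held with totals without crystallins and with median-of-ratios size factors. The latter moved plain log2 ratios by only -0.014 from the deposited scaling, so the count under them is not a separate check. The count was 1 with library totals alone (Efna1) and 3 by the plain ratio with 10 reads (Epha4, Epha7 and Efna5). A gene under 1 FPKM in each library cannot reach 2-fold in FPKM + 1. The minimum of 10 reads thus could not let Epha4, Epha7 or Ephb2 pass. With a pseudocount of 0.1 the log2 ratios of Epha4 and Epha7 were 1.05 and 2.03, and only the minimum mean level left them out. For the 22 family genes the count of 0 became 1 with library totals alone (Efna1), 1 with totals without crystallins (Epha8) and 10 by the plain ratio. For the pathway and junction genes the count of 1 became 3 with library totals alone (Src, Sdcbp and Git1, all higher). It became 3 with totals without crystallins (Ngef lower, Grb10 and Pak1 higher) and 8 by the plain ratio. Beside these counts, 21% of all genes passed with library totals alone, 13.1% with totals without crystallins and 23.9% by the plain ratio. The members' median log2 ratio of -0.18 became 0.57 with library totals alone and 0.13 with totals without crystallins. A scaling shifts every plain ratio by one amount, 0.89 or 0.25 on the log2 scale, but ratios of FPKM + 1 by amounts that differ between genes, and it also changes which genes are measured, from 10 to 13 of the family with totals without crystallins. Of the 19 measured genes among the family, the junction genes, Ngef and Msx2, 13 changed sign with library totals alone, Epha2, Ephb4, Efnb1 and Efnb2 among them, and 5 with totals without crystallins. No paired analysis was possible because each genotype has 1 library, and none could be left out. Counts of 4 to 7 reads in WT limit the ratios of Epha7, Epha8, Epha10, Efna2 and Efna3.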
